A study of Homo sapiens with 14 samples.

Results

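The 64 CpG sites described here lie directly before the annotated start of TEAD4, on chromosome 12 (GRCh38), from position 2958885 to 2959377. They were chosen by position alone, as every listed CpG from 2958885 to 2959396, and make up 40.8% of the 157 sites of the series. TEAD4 lies on the forward strand and spans 2959397 to 3040676. All 64 sites also lie inside LOC124902859, an uncharacterised long non-coding RNA gene that spans 2957598 to 2960048. Distances below are counted from the TEAD4 start, so that CpG 2959124 is at -273 bp.

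Methylation was measured by bisulfite sequencing of amplicons in 14 libraries. All come from HGC-27, a line of human gastric carcinoma cells. Untreated cells gave 2 libraries. For the edited arm, Tr.HGC-27-KRAB cells were given the DNMT3AL domain together with 7gRNAs, a set of 7 guide RNAs designed against the TEAD4 promoter. For the guides-only arm, HGC-27 cells were given the 7gRNAs alone. Both arms were sampled 3, 7 and 14 days after transfection with 2 libraries each. The arms thus differ in the KRAB line as well as in the DNMT3AL domain, which cannot be told apart, and the labels state for neither a number of clones nor whether replicates were separate cultures. Each p-value below therefore rests on library-to-library spread that may be technical, and takes libraries of the same arm on different days to be independent. In the guides-only arm libraries with the same replicate number deviated together across days, with correlations of 0.308 to 0.567 over the 64 sites.

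DNA methylation in mammals sits mainly on the cytosine of CpG pairs. CpG-dense promoters are usually free of it, and methylation there is associated with a silent gene. DNMT3A places methyl groups on unmethylated CpG sites, DNMT3L is its cofactor without catalytic activity, and KRAB is a repressor domain that recruits chromatin silencing factors. TEAD4 is a transcription factor of the Hippo pathway that binds DNA and works with the coactivators YAP and TAZ.

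Without editing, the region held 2 kinds of sites. In untreated cells 56 of the 64 sites had a mean level under 10%, and these are called low sites. The other 8 had 10% or more. The mean over the low sites was 0.480% in untreated replicate 1 and 3.05% in replicate 2, and it was 0.459 to 1.13% in the 6 guides-only libraries. No low site passed 10% in any guides-only library, and 1 did in untreated replicate 2, CpG 2959124 with 12.1%. The spacing of the 64 sites was dense, with a median of 5.5 bp to the next CpG and a range of 2 to 26 bp. The next CpG lay at most 5 bp on at 32 sites and at least 10 bp on at 18 sites.

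Methylation was higher in the edited than in the guides-only libraries over most of this region, with its peaks in separate blocks. The limits of these blocks were set after the values were seen, with no fixed rule. Most low sites outside them were higher in the edited libraries too. Averaged over the 64 sites, the edited libraries had 17.1 and 27.01% on day 3, 26.6 and 24.8% on day 7, and 13.5 and 25.2% on day 14. The guides-only libraries had 7.78 and 8.03%, 8.12 and 8.04%, and 8.01 and 7.99% on the same days. Each edited library lay above each guides-only library, and the edited libraries varied far more among themselves. The arms averaged 22.4% ± 5.66 and 7.996% ± 0.113 (SD, n = 6 each). The mean of the within-day differences was 14.4 percentage points, and its exact permutation p (two-sided) was 0.00926, the lowest this design allows (adjusted p = 0.0134 over the 13 tests of library means).

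At single sites, 58 of the 64 rose and 0 fell over all days in limma on log2 odds, at an adjusted p under 0.05 over all 157 sites. Among all 157 sites 85.4% rose, so the share upstream is near that of the series. Upstream the sites had a median difference of 9.75 points, against 10.4 points for the 157. Among the low sites 55 of 56 rose, and among the 8 others 3 rose. At 56 of the 64 sites the lowest edited library lay above the highest guides-only library, against 65.6% of all 157 sites.

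**Figure D1:**
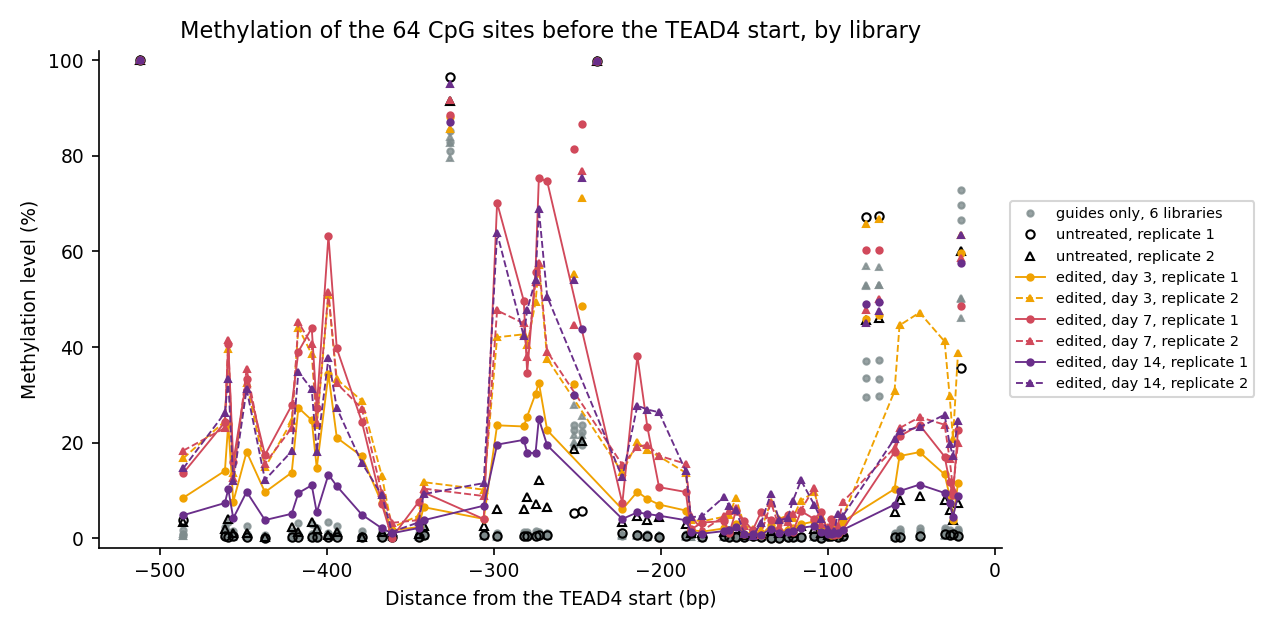
Methylation level in percent at each of the 64 sites (vertical axis) against the distance from the TEAD4 start in bp (horizontal axis), with 1 point per library and, for the edited libraries, lines through the 56 low sites. The edited libraries stand above the controls in 3 blocks, whose limits were set after the values were seen. Most low sites outside the blocks are higher than in the guides-only libraries too. Between -182 and -91 bp the edited libraries fall to 0.397 to 12.1% per library, and 8 sites are methylated in the controls too.

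The largest differences lay in a block between -298 and -247 bp. CpG 2959124, at -273 bp, led all upstream sites. Its level in edited cells was 32.6 and 57.2% on day 3, 75.3 and 57.7% on day 7, and 24.99 and 68.8% on day 14. In the 6 guides-only libraries it was 0.777 to 1.32%, with a median of 0.865%, and untreated cells had 0.628 and 12.1%. Every edited library was above every control library, and replicate 1 of day 14 was the lowest of them. The difference from guides-only cells was 51.8 points, or 6.79 ± 0.760 (SE) in log2 odds (limma adjusted p = 5.09e-05).

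The 3 sites whose levels over the 14 libraries were most like those of CpG 2959124 were CpG 2959099, CpG 2959122 and CpG 2959129 of the same block. They are not all its nearest sites, since CpG 2959115 and CpG 2959117 lie between CpG 2959099 and CpG 2959124. Their mean absolute differences from it were 4.11, 4.38 and 5.67 points. CpG 2959099, at -298 bp, had 19.6 to 70.2% in edited cells, with a median of 44.9%, and 0.310 to 1.09% in guides-only cells, a difference of 43.9 points. CpG 2959122 at -275 bp differed by 42.5 points and CpG 2959129 at -268 bp by 39.9 points. CpG 2959115 and CpG 2959117, at -282 and -280 bp, differed by 36.4 and 33.2 points. At these 5 sites no edited library overlapped a guides-only library, and limma adjusted p-values lay between 4.91e-05 and 6.15e-05.

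On its near side, 5 low sites from -223 to -185 bp were lower. The highest of them was CpG 2959183 at -214 bp, with 5.42 to 38.1% in edited and 0.457 to 0.940% in guides-only cells, a difference of 19.4 points, and the other 4 differed by 9.24 to 16.3 points. The block had a sharp far edge. CpG 2959091, at -306 bp and 8 bp before CpG 2959099, had 4.02 to 11.5% in edited and 0.412 to 0.711% in guides-only cells. The differences at the pair were thus 7.01 and 43.9 points, the largest step between neighbouring low sites of the region. Untreated replicate 2 carried some methylation in the same block, with 6.07% at CpG 2959099 and 8.67% at CpG 2959117, while replicate 1 had 0.381 and 0.487% there. The part of that library in comparisons with untreated cells was not tested beyond the values without it given below.

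Farther out, another block ran from -486 to -379 bp. It peaked at CpG 2958998, at -399 bp, where edited cells had 34.3 and 50.9% on day 3, 63.3 and 51.5% on day 7, and 13.3 and 37.7% on day 14. Guides-only cells had 0.558 to 1.03% in 5 libraries and 3.38% in day 7 replicate 1. The arms did not overlap, and the difference was 40.7 points (5.96 ± 0.533 on the log2 odds scale, SE, limma adjusted p = 4.91e-05). Levels alternated between close neighbours in this block. CpG 2958938 at -459 bp had a median of 36.4% over the 6 edited libraries, and CpG 2958941, 3 bp on, had 12.2%. CpG 2958991 and CpG 2958998, 7 bp apart, differed from guides-only cells by 18.2 and 40.7 points. Between the blocks, the low sites from -367 to -306 bp had edited means of only 1.62 to 8.55%. CpG 2959030, CpG 2959052, CpG 2959055 and CpG 2959091 differed by 7.36, 3.40, 7.56 and 7.01 points, and all of them passed. CpG 2959036 at -361 bp was the 1 low site that did not pass. It had 0.159 to 3.24% in edited and 0.192 to 0.853% in guides-only cells, and the arms overlapped (1.15 points, limma adjusted p = 0.084). In quasi-binomial regression it did pass (F-test adjusted p = 0.0409). Without edited day 7 replicate 1, its lowest edited library, it passed with 1.66 points and a limma adjusted p of 0.00766.

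From -182 to -91 bp the edited cells stayed almost as low as the controls. This stretch of 92 bp, delimited after the values were seen as the longest run of low sites with an edited mean under 10%, holds 20 CpG sites. Their mean in edited cells was 1.81 and 4.39% on day 3, 3.18 and 4.16% on day 7, and 1.40 and 4.86% on day 14. Guides-only libraries had 0.351 to 0.424%. All 20 sites rose over all days in limma, and 18 had arms that did not overlap, but their differences were only 0.771 to 5.91 points, with a median of 2.80. The 29 low sites farther from the start had a median difference of 18.8 points (1.15 to 51.8), and the 7 low sites nearer to it had 19.9 points (10.2 to 23.7). The stretches were drawn on these values, so no test is given between them.

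The 5 smallest differences that passed all lay in this stretch. CpG 2959252 at -145 bp was the smallest, with 0.397 to 1.93% in edited and 0.290 to 0.647% in guides-only cells. Its arms overlapped, its difference was 0.771 points (limma adjusted p = 0.00614), and on untransformed percent it did not pass (limma adjusted p = 0.0974). CpG 2959297, CpG 2959299 and CpG 2959301 form part of a run of CpG sites 2 bp apart around -98 bp, and they differed by 1.19, 1.26 and 1.21 points. Without edited day 7 replicate 2 the last of these was 0.762 points. At CpG 2959301 the arms overlapped, and it did not pass without edited day 3 replicate 2 (0.944 points, limma adjusted p = 0.0513) or on untransformed percent (limma adjusted p = 0.0874). CpG 2959247 at -150 bp differed by 1.66 points.

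Nearest the start, 7 low sites from -60 to -22 bp rose again. Their mean was 11.9 and 36.2% in edited cells on day 3, 17.7 and 19.7% on day 7, and 8.34 and 22.0% on day 14. Guides-only libraries had 0.482 to 1.73%, and untreated cells had 0.570 and 6.82%. Day 3 replicate 2 stood far above the other edited libraries here. At CpG 2959352, at -45 bp, that library had 47.2% and the other 5 had 11.2 to 25.4%, against 0.413 to 2.10% in guides-only cells.

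The sites that were already methylated without editing behaved in different ways. CpG 2958885 at -512 bp and CpG 2959159 at -238 bp were almost fully methylated everywhere, at 99.97 to 99.98% and 99.76 to 99.93% over the 14 libraries. Their differences between edited and guides-only cells were 0.00135 and 0.0644 points (limma adjusted p = 0.959 and 0.196), and such sites have almost no room to rise. In quasi-binomial regression CpG 2959159 did pass (F-test adjusted p = 0.0389). CpG 2959071 at -326 bp had 96.5 and 91.6% in untreated, 79.6 to 85.2% in guides-only and 85.6 to 95.1% in edited cells. The edited libraries lay above the guides-only ones by 6.84 points (limma adjusted p = 0.048), and every guides-only library lay below both untreated ones. That call was lost when any of the 6 guides-only libraries, or any edited library other than day 14 replicate 1, was left out (limma adjusted p from 0.0566 to 0.135).

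CpG 2959145 and CpG 2959150, at -252 and -247 bp, are 5 bp apart and matched each other in the controls. In the 6 guides-only libraries they had 19.4 to 27.9% and 19.6 to 25.7%. Untreated replicate 1 had 5.37 and 5.73% at the pair, and replicate 2 had 18.6 and 20.3%. The levels of the pair differed by at most 2.245 points in all 8 control libraries. In edited cells CpG 2959145 reached 30.1 to 81.4%, with a median of 49.3%, and CpG 2959150 reached 43.9 to 86.7%, with a median of 73.3%. CpG 2959150 was the higher of the pair in each of the 6 edited libraries, by 5.30 to 32.3 points. Over guides-only cells they rose by 27.03 points (limma adjusted p = 0.014) and 44.9 points (limma adjusted p = 0.000432), and at neither did the arms overlap.

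CpG 2959320, CpG 2959328 and CpG 2959377, at -77, -69 and -20 bp, were partly methylated in every library and did not pass between the arms. CpG 2959320 and CpG 2959328 had nearly the same level in each control library, differing by 0.043 to 0.482 points, although that level ran from 29.8 to 67.5% at CpG 2959328. CpG 2959377 ran the other way, from 72.8% in the library with the lowest level at CpG 2959328 to 35.6% in the library with the highest. In guides-only cells the levels went with the replicate number on all 3 days. Replicate 1 had 33.4, 29.8 and 37.2% at CpG 2959328 on days 3, 7 and 14, and replicate 2 had 56.7, 52.9 and 53.1%. At CpG 2959377 replicate 1 had 69.8, 72.8 and 66.6%, and replicate 2 had 46.2, 50.4 and 50.2%. In the 6 guides-only libraries the levels of CpG 2959328 and CpG 2959377 added up to 102.6 to 103.8%, and in untreated cells to 103.1 and 106.1%. In edited cells the sum was 106.4 to 130.3%, with the highest value in day 3 replicate 2. CpG 2959337, a low site 9 bp on from CpG 2959328, had 0.240 to 1.20% in the guides-only libraries. The differences between the arms were 8.54, 9.58 and -0.719 points (limma adjusted p = 0.319, 0.262 and 0.912). These sites were singled out after their values were seen, and the cause of the opposite levels was not tested.

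**Figure D2:**
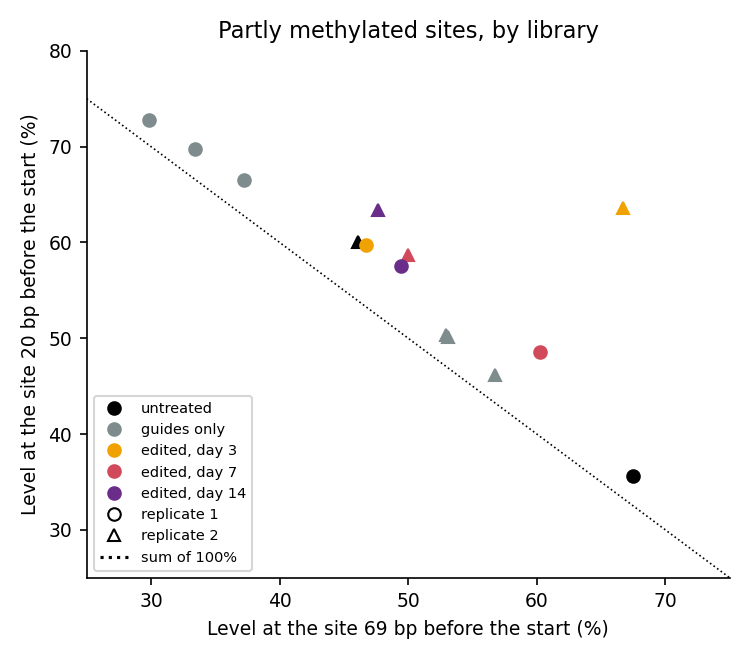
Level of CpG 2959377, 20 bp before the start (vertical axis, percent), against that of CpG 2959328, 69 bp before the start (horizontal axis, percent), with 1 point per library and a dotted line where the levels add up to 100%. Control libraries run along a line just above the dotted one, with sums of 102.6 to 106.1%, and edited day 3 replicate 2 lies farthest from it at 130.3%.

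The 512 bp of the rule were divided into 4 windows of 128 bp. From far to near these hold 12, 12, 15 and 17 low sites. Averaged over all sites of a window, the difference was larger in the 2 farther windows than in the 2 nearer ones. The smaller difference did not extend to the 7 low sites from -60 to -22 bp. Those had a median difference of 19.9 points, against 18.8 points at the 29 low sites from -486 to -185 bp. From -512 to -385 bp (13 sites) edited libraries had 15.0 to 37.4% and guides-only libraries 8.18 to 9.87%, a difference of 21.1 points. From -384 to -257 bp (13 sites) the ranges were 17.6 to 38.6% and 6.63 to 7.70%, a difference of 23.1 points. From -256 to -129 bp (18 sites) they were 11.7 to 21.7% and 8.11 to 8.84%, a difference of 9.37 points, or 5.30 points with the median over sites in place of the mean. From -128 to -1 bp (20 sites) they were 11.4 to 24.7% and 7.27 to 8.40%, a difference of 8.77 points. In each window every edited library lay above every guides-only library (two-sided exact permutation p = 0.00926, adjusted p = 0.0134, for each).

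Per library, the mean of the 2 nearer windows minus that of the 2 farther ones was -19.2 to -4.74 points in edited and -1.11 to 1.07 points in guides-only cells. The arms differed in it by -13.1 points (two-sided exact permutation p = 0.00926, adjusted p = 0.0134). The stretch from -182 to -91 bp lies wholly in the nearer windows. Without its 20 sites the quantity was -1.90 to 8.22 points in edited and 6.98 to 10.1 points in guides-only cells, so the arms overlapped. They then differed by -6.24 points, with no test, since the sites left out were picked by their levels. The sites left are not alike either. Already methylated sites make up a larger share of the 18 nearer sites left than of the 26 farther ones. The low sites from -367 to -306 bp, with differences of 1.15 to 7.56 points, also stayed among the farther ones.

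**Figure D3:**
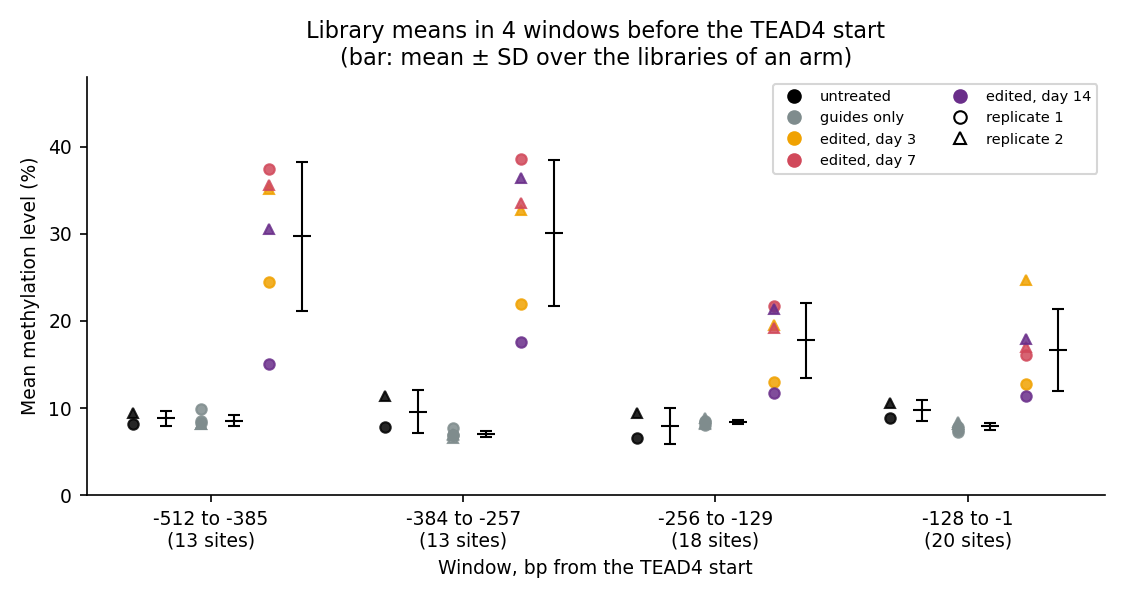
Mean methylation level in percent per library (vertical axis) in 4 windows of 128 bp before the TEAD4 start (horizontal axis), with bars for the mean ± SD over the libraries of an arm. Edited libraries lie above all guides-only libraries in each window and reach 38.6% in the window from -384 to -257 bp, and replicate 1 of day 14 is the lowest edited library in all 4.

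Spacing to the next CpG gave a difference that turned with the choice of sites. Over the 31 low sites with the next CpG at most 5 bp on, the edited libraries had 6.21 to 19.8%. Over the 14 low sites with the next CpG at least 10 bp on, they had 7.62 to 24.6%. The first mean minus the second was -6.61 to -1.40 points in edited and -0.212 to 0.0289 points in guides-only cells, and the arms differed in it by -3.81 points (two-sided exact permutation p = 0.00926, adjusted p = 0.0134). However, 15 of the 31 closely followed sites and 2 of the 14 widely spaced ones lie between -182 and -91 bp. Without that stretch the sign was opposite, at 2.07 to 6.82 points in edited and 0.0453 to 0.311 points in guides-only cells, and the arms differed by 4.315 points. No test of this value is given, since the stretch was drawn on the levels themselves. With the median over sites in place of the mean, and all sites kept, the arms differed by -9.48 points. Across the 56 low sites, which share libraries and are not independent, spacing and difference had a Pearson r of 0.0947 and a Spearman rho of 0.11, given as a description.

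**Figure D4:**
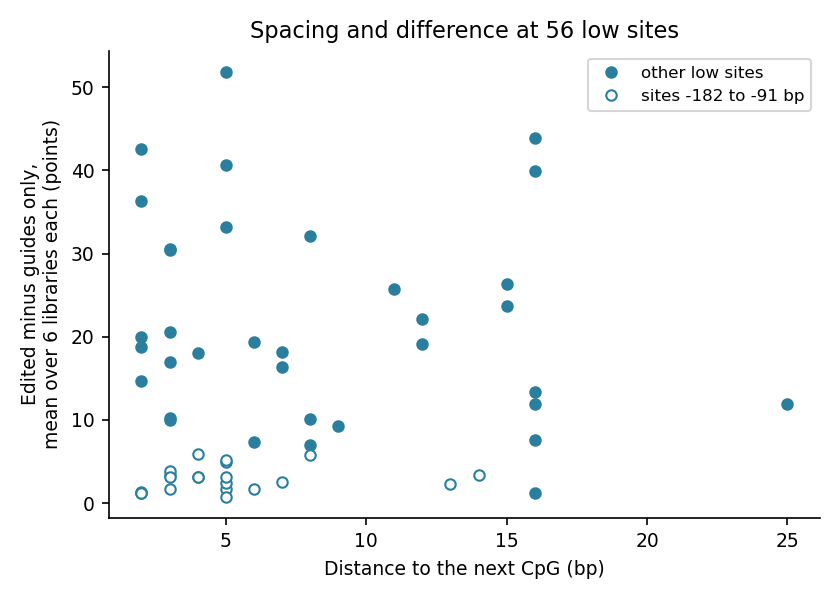
Difference between edited and guides-only cells in percentage points (vertical axis, mean of 6 libraries each) against the distance to the next CpG in bp (horizontal axis) for the 56 low sites. Open points, the 20 sites from -182 to -91 bp, lie at 0.771 to 5.91 points and mostly at short distances, while the other sites reach 51.8 points.

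The order of the low sites was shared among the edited libraries. Across the 56 low sites, Spearman's rho between pairs of edited libraries was 0.908 to 0.984, with a median of 0.952. Between pairs of guides-only libraries it was 0.392 to 0.878, with a median of 0.518. The low sites lay at only 0.130 to 3.38% in those libraries, against 0.159 to 75.3% in edited ones. The 2 sets of rho thus come from unlike ranges and are not set against each other. All are descriptions across sites of 1 region. The height of the profile varied instead: day 14 replicate 1 had no low site above 30% and 11 above 10%, whereas day 3 replicate 2 had 17 above 30% and 34 above 10%. CpG 2959124 was the highest low site in 5 of the 6 edited libraries, and CpG 2958998 was in day 3 replicate 1.

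On day 3 the difference was already present upstream. In limma 47 of the 64 sites rose and 0 fell. Among all 157 sites 47 rose as well (29.9%), so every call of that day lay upstream and none lay outside. The median difference was 10.3 points upstream and 11.6 points over all 157, so more calls upstream did not go with a larger median difference. All 47 were low sites. CpG 2959124 led with 44.0 points (limma adjusted p = 0.00663), followed by CpG 2958998 with 41.8 points (limma adjusted p = 0.00273) and CpG 2959122 with 38.9 points (limma adjusted p = 0.00663). The count fell to 3 without edited day 3 replicate 2 and to 23 without guides-only day 3 replicate 2. On untransformed percent limma called 9 sites, CpG 2959124 and CpG 2959122 not among them.

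On day 7, 53 sites rose and 0 fell in limma, against 60.5% of all sites. The 64-site means of the replicates were close, and the arms differed in them by 17.6 points. The same difference on day 3 was 14.1 points, with 9.16 points without edited day 3 replicate 2 and 19.1 points without replicate 1, so days 3 and 7 have no settled order. CpG 2959124 differed by 65.4, CpG 2959150 by 59.2 and CpG 2959099 by 58.2 points (limma adjusted p = 0.00125, 0.00345 and 0.00115). The count was 34 without guides-only day 7 replicate 2 and 34 on untransformed percent.

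On day 14, 47 sites rose and 0 fell in limma, against 56.7% of all sites. The 64-site means differed by 11.4 points, with 5.49 points without edited day 14 replicate 2 and 17.2 points without replicate 1. CpG 2959124 led again with 46.0 points (limma adjusted p = 0.00292), ahead of CpG 2959099 with 41.2 points (limma adjusted p = 0.0021) and CpG 2959150 with 37.1 points (limma adjusted p = 0.0399). Without edited day 14 replicate 2 these differences were 24.1, 19.1 and 21.3 points, and without replicate 1 that of CpG 2959099 was 63.35 points. The call of CpG 2959150 was lost when any guides-only library, either edited library of day 7 or edited day 14 replicate 2 was left out. The count was 14 without edited day 14 replicate 2, 23 without guides-only day 14 replicate 2, 11 on the untransformed scale and 30 with quasi-binomial regression. Over the 3 days, 44 sites passed on every day and 10 on none, and 63 of 64 were higher in edited cells on each day. Every day 3 call among the 157 sites lay upstream, so no site outside could pass on every day. The 44 sites are thus also the count over all 157. For the counts of 10 and 63 no share over all 157 sites was computed, and they are given as a description.

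**Figure D5:**
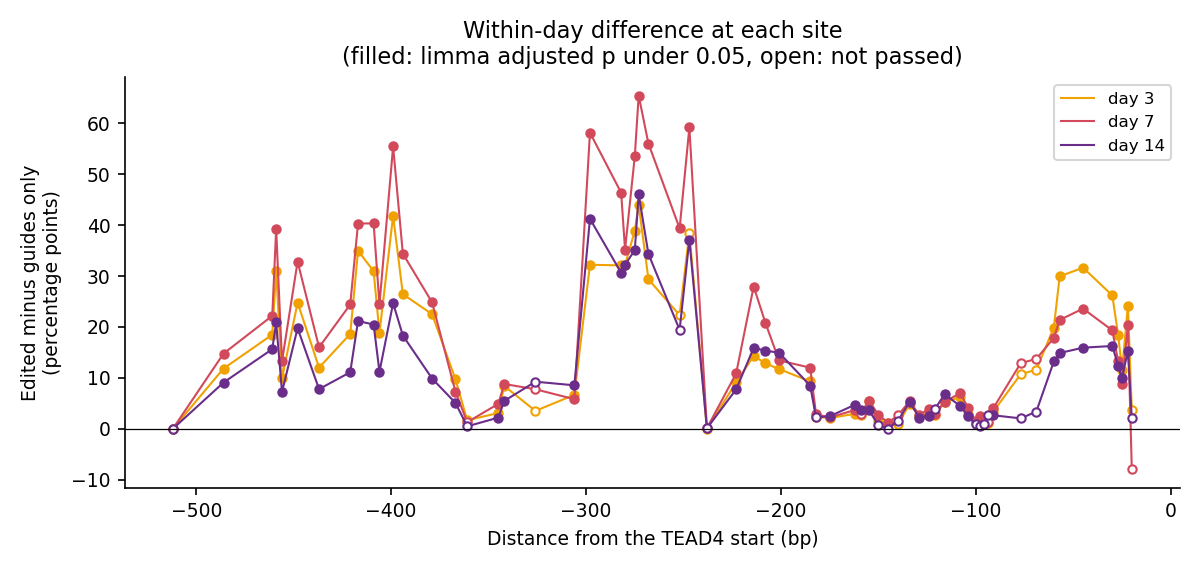
Within-day difference between edited and guides-only cells in percentage points (vertical axis) at the 64 sites, against the distance from the TEAD4 start in bp (horizontal axis), with 1 line per day and filled points where limma's adjusted p was under 0.05. Each of the 3 lines is highest at -273 bp, where day 7 reaches 65.4 points. Day 3 is the highest line at every site from -60 to -20 bp, with 31.6 points at -45 bp. That rests on edited day 3 replicate 2, which had 47.2% at -45 bp against 18.0% in replicate 1.

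The days were also compared directly within edited cells. The 64-site mean of day 3 was 22.0% ± 7.03, that of day 7 was 25.7% ± 1.29 and that of day 14 was 19.4% ± 8.29 (SD, n = 2 for each day), and they differ by less than the larger of these spreads. In limma 0 of 64 sites passed between day 7 and day 3 (0 at an unadjusted p under 0.05, 1 with quasi-binomial regression), 0 between day 14 and day 3 (0 and 2 unadjusted), and 0 between day 14 and day 7 (4 and 10 unadjusted). Of all 157 sites 0.0% passed in these comparisons. Although neither passed, CpG 2959129 differed most from day 3 to day 7, by 26.8 points, and CpG 2958998 most from day 7 to day 14, by -31.9 points (limma adjusted p = 0.899 and 0.994). From day 3 to day 14 CpG 2958998 differed by -17.1 points, CpG 2959352 by -15.4 points and CpG 2959340 by -14.8 points (limma adjusted p = 0.894 for each). These values rested on single libraries. Without edited day 7 replicate 1 the value of CpG 2959129 was 8.98 points. Without edited day 14 replicate 1 those of CpG 2958998 were -19.7 points from day 7 and -4.92 points from day 3. Without edited day 3 replicate 2, CpG 2958998 differed from day 3 to day 14 by -8.82 points, CpG 2959352 by -0.793 points and CpG 2959340 by -1.08 points. The arms were also tested for unequal change between days 3 and 14, and 0 sites passed in limma (0 unadjusted) or quasi-binomial regression (1 unadjusted).

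Set against untreated cells, edited cells had 13.3 points more over the 64 sites (22.4% ± 5.66, SD, n = 6, against 9.04% ± 1.64, SD, n = 2). The two-sided exact permutation p was 0.0357, the smallest that 6 libraries against 2 can give (adjusted p = 0.0438). In limma 49 sites rose and 0 fell, against 58.0% of all 157 sites. CpG 2959150 rose by 54.1 points, CpG 2959124 by 46.4 points and CpG 2958998 by 41.4 points (limma adjusted p = 0.00119, 0.00285 and 0.000375). Without untreated replicate 2 the count was 51 rises and 1 fall, the fall at CpG 2959071, and without untreated replicate 1 it was 18. On untransformed percent 30 sites passed.

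Guides-only and untreated cells were compared to see whether the guides alone changed the region. The 64-site means differed by -1.05 points (7.996% ± 0.113, SD, n = 6, and 9.04% ± 1.64, SD, n = 2; two-sided exact permutation p = 0.214, adjusted p = 0.232). The sign rested on untreated replicate 2, without which the difference was 0.113 points (exact p = 0.429). In limma 0 of 64 sites passed (3 at an unadjusted p under 0.05), and in quasi-binomial regression 0 (1 unadjusted), as 0.0% of all 157 sites did. CpG 2959328 differed most, by -12.9 points, ahead of CpG 2959320 with -12.6 and CpG 2959071 with -11.5 points, and none of the 3 passed (limma adjusted p = 0.994, 0.994 and 0.65). Without untreated replicate 1 the values of CpG 2959328 and CpG 2959320 were -2.19 and -1.74 points.

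The upstream sites were last set against the parts of the promoter nearest to them. The sites after the start up to 2959590 follow without a gap above 100 bp. Per library, the upstream mean minus the mean of those sites was -13.9 to 12.1 points in edited and -1.83 to 3.15 points in guides-only cells, and the arms differed in it by 2.07 points (two-sided exact permutation p = 0.639, adjusted p = 0.639). That difference was -5.78 points on day 3, 10.07 points on day 7 and 1.92 points on day 14, and -0.928 points without edited day 3 replicate 1 and 5.06 points without edited day 3 replicate 2. In guides-only cells the quantity went with the replicate number, at -1.83 to -0.809 points in replicate 1 and 3.11 to 3.15 points in replicate 2 of the 3 days. Against the sites from 2959762 to 2960277, the upstream mean minus theirs differed between the arms by -12.2 points (two-sided exact permutation p = 0.037, adjusted p = 0.0438). That difference was 2.77 points on day 3, -18.0 points on day 7 and -21.2 points on day 14. It had an exact p of 0.222 on the log2 odds scale, and its exact p was 0.0556 to 0.13 when 1 library was left out, other than guides-only day 3 replicate 1, edited day 3 replicate 1 or edited day 14 replicate 2. Guides-only day 3 replicate 1 had -8.96 points in this quantity and the other 5 guides-only libraries had 4.18 to 4.98 points, and without it the arms differed by -14.4 points (exact p = 0.00926).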

How the data were processed

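Per the labels' protocols, the authors aimed for 100000 reads or more of every amplicon. The submitters' processing notes name Trim Galore 0.6.7, which trims reads, Bismark 0.23.1, which aligns bisulfite reads and calls methylation, and the build hg38. The step from calls to tables is not described in the labels. The tables deposited by the authors give the methylation level in percent, with decimal commas, at 157 CpG positions. Read counts were not used here, so the depth of a value is unknown and it has no counting interval. Compared at the full precision deposited, 0 sites had an identical value in 2 libraries. The listed positions are 1-based and give the cytosine on the forward strand: of the 5 sites inside the RefSeq (GRCh38.p14) promoter sequence of LOC124902859, 5 fell on a CG.

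Site tests used limma on log2((percent + 0.1)/(100 - percent + 0.1)) fitted to 157 sites in 14 libraries with a mean for each of the 7 groups, and Benjamini-Hochberg adjustment over the 157 sites at 0.05. Library means over sites were compared by two-sided exact permutation, within days for edited against guides-only cells, and adjusted over 13 tests. Levels are means over libraries ± SD and differences are percentage points. The sites follow a rule on position alone, but that rule, the windows, the classes and the tests were set with earlier results of these data known. The p-values of the windows and spacing classes carry this limit. Named sites follow a fixed rule: the 8 largest and 5 smallest differences that passed over all days, every site that did not pass or had 10% or more in untreated cells, and the 3 largest differences of each other comparison; others are named to describe the stretch they lie in. Alternatives were untransformed percent, an offset of 1, quasi-binomial regression with an F-test, a replicate block, medians or log2 odds in place of means, and leaving out each library. The fits were tested on simulated data. R 4.3.3, limma 3.58.1, Python 3.11.15, numpy 2.4.6, scipy 1.17.1 and pandas 2.3.3 were used.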

Additional observations from a re-analysis of the deposited data

Results flagged for a closer look

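Guides-only day 7 replicate 1 stood apart from the other guides-only libraries in the window from -512 to -385 bp. Its mean there was 9.865%, and the other 5 had 8.18 to 8.525%, a gap of 0.797 of the whole range of the 6 libraries, which is beyond the 95% critical value of Dixon's test. The 6 libraries cover 3 days. Of the 14 sets of 6 libraries examined 1 was beyond that value, which about 1 in 20 sets pass by chance.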

How the results depend on the processing

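Counts of sites that passed over all days were 54 to 60 under the alternatives. Counts for single days moved more. On untransformed percent limma called 9, 34 and 11 sites on days 3, 7 and 14 and 30 against untreated cells, and quasi-binomial regression called 25 on day 3 and 30 on day 14. Leaving out 1 library at a time gave 3 to 48, 34 to 53 and 14 to 50 sites on days 3, 7 and 14, and 18 to 52 against untreated cells. Where 1 library of a group remained, the fit took its spread from the groups with 2. The day 7 difference of the medians over sites was 16.35 points. The 64-site difference from untreated cells was 12.15 to 15.1 points without single libraries and 16.2 points without 3 libraries that stood apart (edited day 14 replicate 1, guides-only day 7 replicate 1 and untreated replicate 2, chosen after the values were seen). With 1 untreated library an exact test cannot pass. The contrast with the sites from 2959762 to 2960277 had -0.98 on the log2 odds scale (exact p = 0.222), -14.4 to -9.89 points without single libraries and -10.1 points without those 3 libraries (exact p = 0.0741). The spacing contrast reversed to 4.315 points without the stretch from -182 to -91 bp. The cause of these changes was not tested, apart from the lost libraries and sites themselves. Of the other values that answer a comparison 379 kept their direction and their side of the threshold or were within 1.5 times the main count; of those for named sites 881 did, 28 became weaker and 3 stronger.

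The labels give the same replicate numbers to all groups but do not say that they pair libraries. Deviations of same-numbered edited and guides-only libraries had correlations of -0.262, -0.0032 and -0.168 on days 3, 7 and 14, and 7 of all 21 pairs of groups were over 0.1. All 3 pairs of guides-only days were among them, at 0.308, 0.524 and 0.567, which is a hint from the data, not the design. With a replicate block limma called 57 sites over all days and 46, 54 and 49 on days 3, 7 and 14, CpG 2959071 no longer passed (limma adjusted p = 0.0635), and the contrast with the sites from 2959762 to 2960277 stayed at -12.2 points with an exact p of 0.0938. Depth per site is unknown, so the small differences between -182 and -91 bp were judged against the spread between libraries alone.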

Other observations

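Edited day 7 replicates had nearly the same mean over the 64 sites but different heights at single sites. CpG 2959099 had 70.2% in replicate 1 and 47.7% in replicate 2, CpG 2959129 had 74.7 and 39.1%, and CpG 2959145 had 81.4 and 44.7%. At CpG 2959117, which lies among them, the levels were 34.6 and 37.8%. At CpG 2959036 replicate 1 had 0.159% and replicate 2 had 3.24%. With 2 libraries, no test of these differences is given.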
